A study of Homo sapiens with 12 samples.

Results

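The enzymes that build cholesterol and long-chain fatty acids, with the proteins that set their transcription, were followed in human cells with and without mitochondrial DNA (mtDNA). The list held 30 genes, matched by gene symbol or older alias, and it was chosen with earlier results of these data known. Of these, 27 had at least 1 probe set (a group of short probes against a transcript) with a single gene in the platform annotation, 53 probe sets of the 22283 on the array. The list was divided by role into the mevalonate pathway, the enzymes from squalene to cholesterol, the regulators of sterol regulatory element-binding proteins (SREBPs), the enzymes that make palmitate, and the desaturases and elongases. Total RNA of 4 groups of cells had been hybridised to Affymetrix human expression arrays, 3 arrays a group. The groups were A549 ρ+ and A549 ρ°, from a lung adenocarcinoma of epithelial origin, and 143BTK− ρ+ and 143BTK− ρ°, from an osteosarcoma line without thymidine kinase. The ρ° cells had been freed of mtDNA by 50 ng/ml ethidium bromide for 3 weeks and were a mixed population with no clone picked, and the ρ+ cells were the parental lines, which had not received ethidium bromide. Parental and ρ° cells were grown in the same high-glucose medium with 10% fetal calf serum, 1 mM pyruvate and 50 µg/ml uridine. The ethidium bromide had been removed, and parental and ρ° cells had been frozen, revived and passaged before RNA was taken. Ethidium bromide treatment and loss of mtDNA cannot be told apart in this design.

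Cholesterol is made from acetyl-CoA. The mevalonate pathway turns it into isoprenoid units, which are joined to squalene, closed to lanosterol and trimmed to cholesterol, and several of the late steps use molecular oxygen and NADPH. The genes of this pathway are switched on together when sterols in the endoplasmic reticulum are low: SCAP then carries SREBPs to the Golgi, where they are cut and released to the nucleus, and INSIG1 holds SCAP back when sterols are plentiful. SREBF2 is best known for sterol genes and SREBF1 for fatty acid genes. Serum in the medium also supplies sterols and fatty acids to cultured cells.

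Of the genes that passed the adjusted test in some comparison, the promoters that held at least 8 successive letters of the sterol regulatory element are printed here, because the genes of the pathway are known for their shared control through this element. The letters searched on both strands were TCACNCCAC for the element, its overlapping parts TCACNCCA and CACNCCAC, and CCAAT for the box that binds NF-Y, a factor which acts beside SREBPs. The windows searched ran from 250 bases before to 50 bases after each RefSeq transcript start (GRCh38.p14), and 26 of the 30 genes had a window. The bases before the start are shown, 5′ to 3′ on the strand of the gene, with the element part and CCAAT on either strand in capitals. The MSMO1 window is chr4:165327419-165327668 on the plus strand, with TCACTCCA and 4 CCAAT letters. That of INSIG1 is chr7:155297628-155297877 on the plus strand and that of IDI1 chr10:1048887-1049136 on the minus strand, both with GTGGCGTG, the last 8 letters of the element on the opposite strand.
MSMO1: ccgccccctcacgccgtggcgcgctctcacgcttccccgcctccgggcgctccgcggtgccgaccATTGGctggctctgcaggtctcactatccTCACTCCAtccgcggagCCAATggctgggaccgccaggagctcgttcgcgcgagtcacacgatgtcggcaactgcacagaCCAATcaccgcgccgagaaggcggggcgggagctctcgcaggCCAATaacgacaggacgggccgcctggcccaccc
INSIG1: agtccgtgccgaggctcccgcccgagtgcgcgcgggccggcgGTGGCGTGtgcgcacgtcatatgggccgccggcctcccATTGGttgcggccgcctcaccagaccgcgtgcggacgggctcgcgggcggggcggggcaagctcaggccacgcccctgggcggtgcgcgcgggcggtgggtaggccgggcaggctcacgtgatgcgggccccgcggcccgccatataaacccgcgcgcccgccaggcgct
IDI1: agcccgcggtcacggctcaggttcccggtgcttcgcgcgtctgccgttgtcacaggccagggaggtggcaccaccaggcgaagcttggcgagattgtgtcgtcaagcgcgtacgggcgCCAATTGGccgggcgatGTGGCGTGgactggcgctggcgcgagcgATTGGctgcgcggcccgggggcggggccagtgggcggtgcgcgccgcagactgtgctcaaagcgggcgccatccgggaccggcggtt
The whole element was found in 1 of 26 members, SREBF2, and in 1.39% of all 27305 genes. Its first 8 letters were in 3 members (MSMO1, MVK and SREBF2) against 4.80% of all genes, and its last 8 in 6 (ACACA, IDI1, INSIG1, SC5D, SCD and SREBF2) against 7.05%. CCAAT was found in 20 of 26 members (76.9%) and in 39.7% of all genes, and the members without it were CYP51A1, ELOVL6, FADS1, PMVK, SCAP and SREBF1. These matches describe letters in the windows, not binding.

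The deposited values are MAS5 signals that had been quantile-normalized within each line, so the arrays of a line had medians of 31.3 to 31.4 in A549 and 27.6 in 143BTK−, and levels cannot be compared between lines or between probe sets. A signal was compared between ρ° and ρ+ arrays of a line on the log2 scale with limma, over all probe sets kept in the line. The kept probe sets were those with the highest mean signals, down to 19.1 in A549 and 12.6 in 143BTK−, and no size is given for a change whose lower group had a mean log2 signal under this limit. Of the members, 48 probe sets were kept in A549 and 50 in 143BTK−, with 27 genes in each. The 3 arrays of a group came from separate RNA extractions, so p-values measure the spread between these extractions. Between replicates the median absolute difference of log2 signals was 0.27 to 0.49, and in bulk RNA less RNA per cell and fewer cells of a kind cannot be told apart. Of the epithelial markers CLDN4 and EPCAM were not kept in A549, and KRT19 ran at 373.3, 381.4 and 471.4 in its ρ+ and at 2.1, 5.5 and 3.0 in its ρ° cells. CDH1, CLDN4 and KRT19 were not kept in 143BTK−, nor were the mesenchymal and bone-forming markers COL1A2 and RUNX2.

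In A549 ρ° cells, genes along the sterol branch were lower, from IDI1 in the mevalonate pathway to DHCR7 at its end, by 1.79-fold to 3.05-fold, and no enzyme that makes palmitate passed the test. Of 48 member probe sets, 14 from 10 genes were lower at a limma adjusted p under 0.05 (5.2% of all probe sets were), and 1, of TM7SF2, was higher (5.66% of all). The median log2 change of the members was −0.57, beside −0.00 for all probe sets, with 35 members below 0 and 13 above. All 3 ρ° arrays lay below all 3 ρ+ arrays for 18 member probe sets of 12 genes (16.1% of all probe sets did), and above them for 3, of PMVK, SREBF2 and TM7SF2 (15.8% of all). By role, 3 of 10 probe sets of the mevalonate pathway were called lower (median log2 change −0.77), 8 of 16 of the enzymes from squalene to cholesterol (−0.80), 2 of 7 of the SREBP regulators (−0.18), 0 of 6 of palmitate synthesis (0.26) and 1 of 9 of the desaturases and elongases (−0.36). The count depended on single arrays: it was 8 without ρ+ A or without ρ+ B and 6 without ρ° A or without ρ° B. It was 7 without the intensity trend and 8 without the filter on low signals. The calls of MSMO1, SQLE, TM7SF2, an EBP and an IDI1 probe set passed in every alternative that was run for them. Markers of other kinds moved in the same comparison: 14 of 14 proliferation probe sets had a negative change (2 called lower), with summed signals of 4548 to 7659 in ρ+ and 2022 to 4661 in ρ° cells, and 4 of 5 epithelial probe sets were called lower, with summed signals of 12702 to 15402 and 4923 to 8632. Of 5 mesenchymal probe sets 0 were called, with summed signals of 2623 to 4814 and 4297 to 4927. The sums follow the brightest probe sets: in ρ+ cells KRT18 alone had 8257.9, 7017.2 and 9407.5, and VIM 2802.3, 2447.2 and 4658.3. KRT19, among the 5 epithelial probe sets, was kept through its ρ+ signals. The part of these markers in the result was not tested. The ρ° C array held the highest of the 3 ρ° signals for 27 of 48 members, against 34.2% of all probe sets, among them 8 of 10 of the mevalonate pathway and 11 of 16 of the enzymes from squalene to cholesterol. Without it 14 member probe sets were called lower.

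**Figure D1:**
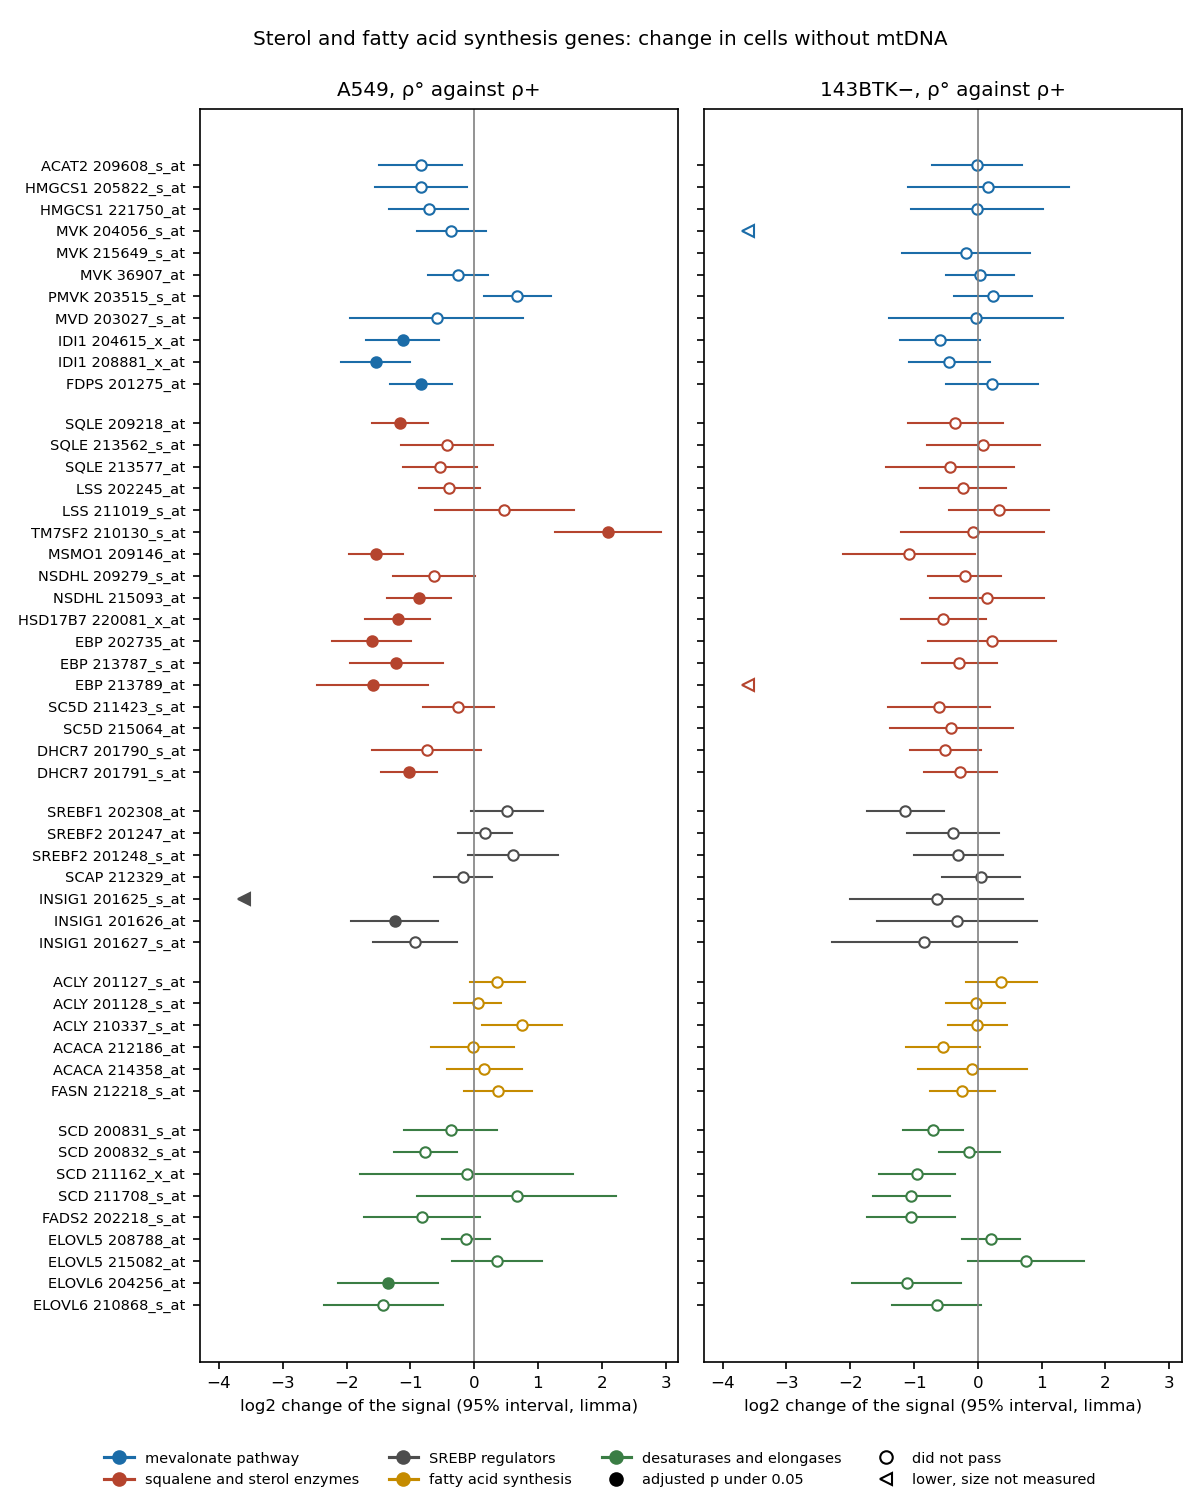
Log2 change of the signal in ρ° against ρ+ cells (x axis) for every kept member probe set (y axis, by role) in A549 (left) and 143BTK− (right), from 3 arrays a group. Points are limma estimates with 95% intervals, filled where the adjusted p was under 0.05. Left-pointing triangles mark probe sets whose ρ° mean was under the lowest signal kept, so that only the direction is shown. In A549 14 filled points lie below 0 and 1 above, and in 143BTK− 0 points are filled.

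The mevalonate pathway begins with ACAT2, which joins acetyl-CoA units, and HMGCS1, which adds a further unit. ACAT2 signals in A549 were 156.9, 230.6 and 243.7 on the ρ+ arrays A, B and C and 110.6, 83.0 and 168.4 on the ρ° arrays, with 1 ρ° array above the lowest ρ+ array (log2 change −0.84, adjusted p = 0.0949). HMGCS1 had a log2 change of −0.83 in 1 probe set (adjusted p = 0.128) and of −0.71 in the other (0.133). The kinases gave no call. MVK, which phosphorylates mevalonate, had log2 changes of −0.36 and −0.25, and PMVK, which adds the next phosphate, had 139.7, 88.6 and 99.6 in ρ+ and 148.9, 180.0 and 187.0 in ρ° cells, without overlap (log2 change 0.67, adjusted p = 0.0974). MVD, the decarboxylase, spread from 13.2 to 73.7 within the ρ+ arrays.

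IDI1 interconverts both isoprenoid building blocks. Its probe set 208881_x_at gave 387.2, 441.7 and 422.8 in A549 ρ+ and 122.9, 115.3 and 205.3 in ρ° cells, so each ρ° array was below each ρ+ array. The mean was 417 ± 27.7 (SD, n = 3) and 148 ± 49.9, a 2.92-fold decrease (log2 change −1.55, SE 0.24, adjusted p = 0.00465). The other probe set, 204615_x_at, fell as well, from 311 ± 74.7 to 143 ± 33.9 (2.18-fold, adjusted p = 0.0227), a call that was lost without ρ+ A, ρ° A or ρ° B (adjusted p = 0.0622 to 0.0881). Both carry the suffix _x_at, which marks probes that can match other transcripts too. FDPS makes farnesyl diphosphate, from which sterols and protein prenyl groups are drawn. It had 422.0, 464.9 and 343.7 in ρ+ and 231.3, 181.1 and 282.8 in ρ° cells. These groups did not overlap (1.79-fold lower, log2 change −0.84, SE 0.22, adjusted p = 0.0373), and the call was lost when either replicate A or B of either state was left out (0.0901 to 0.152) and without the intensity trend, without the filter or with a replicate block (0.0511 to 0.0868).

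SQLE, the squalene epoxidase that commits squalene to sterols, had signals of 670.1, 600.9 and 585.5 in A549 ρ+ and 225.9, 272.0 and 339.5 in ρ° cells. The ranges were far apart, and the decrease was 2.24-fold (log2 change −1.17, SE 0.20, adjusted p = 0.00601). The other SQLE probe sets, 213562_s_at and 213577_at, did not pass, with −0.43 (adjusted p = 0.434) and −0.54 (0.213) on the log2 scale. LSS closes the ring to lanosterol. Its log2 change was −0.39 in 202245_at (adjusted p = 0.277) and 0.47 in 211019_s_at (0.577), with signals near the lowest kept in the latter.

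MSMO1, NSDHL and HSD17B7 act one after the other in the removal of methyl groups from the sterol ring. MSMO1, the oxidase, had 344.8, 313.1 and 315.6 in A549 ρ+ and 103.1, 112.9 and 120.4 in ρ° cells. Its replicates lay close together in both groups, with 324 ± 17.6 and 112 ± 8.68 (SD, n = 3), and the decrease was 2.90-fold (log2 change −1.53, SE 0.19, adjusted p = 0.00131). Of the NSDHL probe sets, 215093_at had 86.7, 103.8 and 109.6 in ρ+ and 51.8, 57.5 and 54.7 in ρ° cells. This 1.82-fold decrease passed (log2 change −0.87, SE 0.23, adjusted p = 0.0372) but in 0 of the 6 fits that left out an array (0.0556 to 0.131), and the other probe set, 209279_s_at, did not pass (log2 change −0.63, adjusted p = 0.188). HSD17B7, the keto reductase of the complex, had 216.6, 204.3 and 149.8 in ρ+ and 91.5, 81.4 and 73.7 in ρ° cells. It was 2.29-fold lower (log2 change −1.20, SE 0.23, adjusted p = 0.0107), with an adjusted p of 0.0548 without ρ+ B, and it was read by an _x_at probe set alone.

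EBP, the sterol isomerase that follows, was lower in all of its probe sets. EBP 202735_at had 243.8, 249.9 and 329.4 in A549 ρ+ and 76.5, 69.0 and 134.4 in ρ° cells, 3.05-fold lower (log2 change −1.61, SE 0.28, adjusted p = 0.00691). EBP 213787_s_at, the brighter signal, had 884.7, 675.1 and 666.3 against 300.4, 191.9 and 549.1 (2.33-fold, adjusted p = 0.0396). EBP 213789_at had 71.6, 76.7 and 204.0 against 32.8, 29.6 and 42.1 (3.02-fold, adjusted p = 0.0292). No ρ° array reached a ρ+ array in any of the 3, but the calls of 213787_s_at and 213789_at were lost without ρ+ B, ρ° A or ρ° B, and that of 213787_s_at without ρ+ A too (0.0538 to 0.137 over both). SC5D, which introduces a ring double bond, had a log2 change of −0.25 (adjusted p = 0.566).

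DHCR7 makes cholesterol in the last reduction. DHCR7 201791_s_at had 327.1, 310.4 and 356.0 in A549 ρ+ and 165.6, 137.9 and 190.9 in ρ° cells. The groups were clearly apart, 2.02-fold (log2 change −1.02, SE 0.20, adjusted p = 0.0118), with an adjusted p of 0.0514 to 0.0566 without ρ° A or ρ° B. The other probe set, 201790_s_at, overlapped between the groups (log2 change −0.74, adjusted p = 0.243).

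TM7SF2, a sterol reductase of the endoplasmic reticulum that acts right after the demethylation of lanosterol, went the other way. Its signals were 16.5, 14.3 and 31.8 in A549 ρ+ and 83.4, 111.8 and 63.8 in ρ° cells. All 3 ρ° arrays were above all ρ+ arrays, and the ρ+ signals lay near the lowest mean signal kept. The increase was 4.30-fold (log2 change 2.10, SE 0.38, adjusted p = 0.00794). In 143BTK− its signals were 15.8, 29.1 and 10.8 in ρ+ and 15.7, 10.9 and 24.5 in ρ° cells, with full overlap, and the difference between the lines had an adjusted p of 0.0925.

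**Figure D2:**
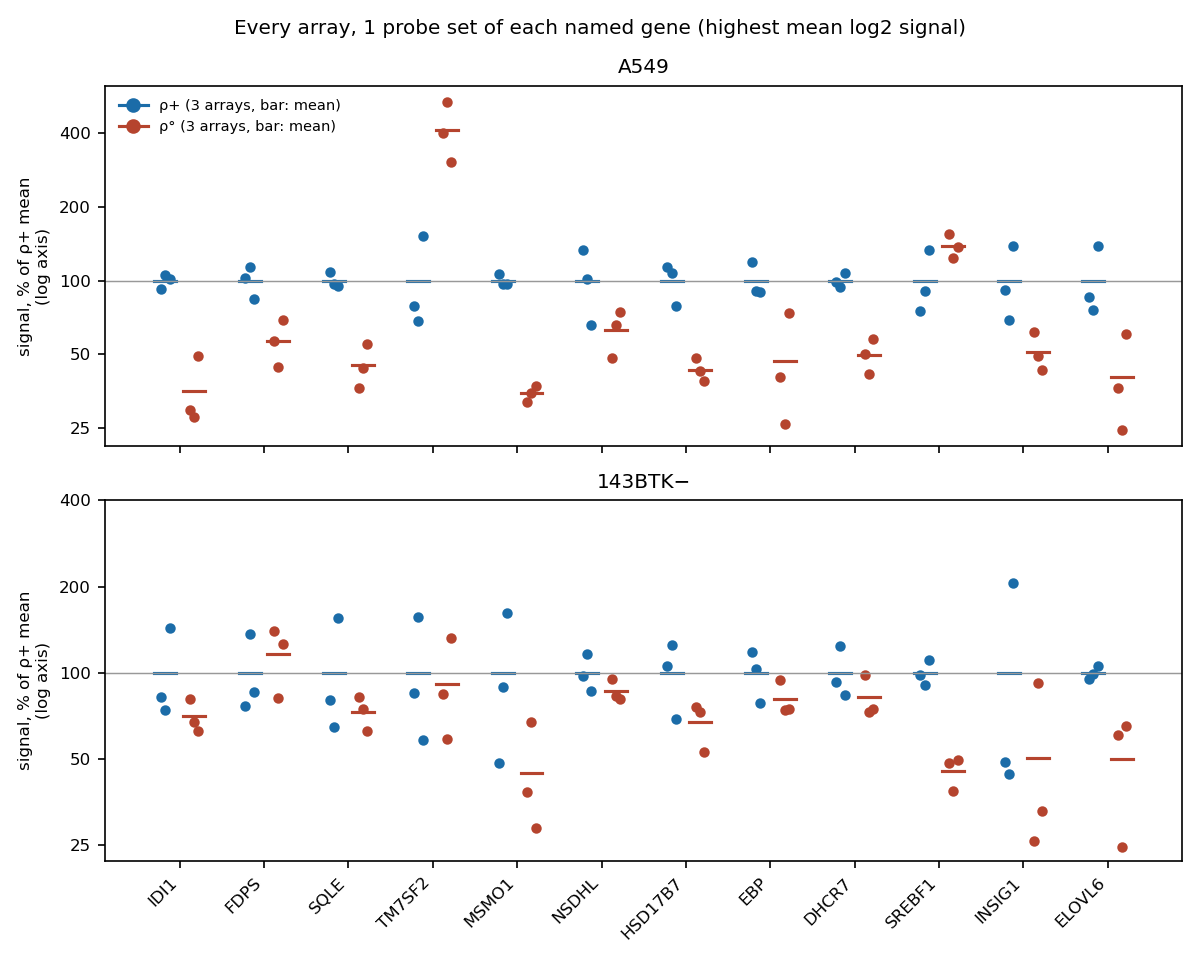
Signal on every array as a percentage of the ρ+ mean of the line (y axis, log scale) for 12 genes (x axis) in A549 (top) and 143BTK− (bottom), with 1 probe set a gene, that of the highest mean log2 signal. Points are arrays, 3 a group, and bars are means. For INSIG1 (201627_s_at) and NSDHL (209279_s_at) the probe set shown passed in no comparison, while another of the gene did. In A549 MSMO1 ρ° arrays average 34.6% of the ρ+ mean and TM7SF2 ρ° arrays 414%, and in 143BTK− the ρ+ points of MSMO1, SQLE, IDI1 and INSIG1 are widely spread.

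Among the SREBP regulators INSIG1 was lower in A549 ρ° cells and the transcription factors did not pass the test. INSIG1 201626_at had 100.8, 63.7 and 136.0 in ρ+ and 43.9, 40.9 and 36.4 in ρ° cells, 2.37-fold lower (log2 change −1.25, SE 0.31, adjusted p = 0.0287). INSIG1 201625_s_at had 155.6, 85.3 and 136.0 against 5.6, 34.1 and 32.6 (adjusted p = 0.0209), with a ρ° mean of logs under the lowest signal kept, so no size is given. INSIG1 201627_s_at had 101.5, 76.8 and 154.1 against 68.0, 54.5 and 47.8 (log2 change −0.92, adjusted p = 0.0741). The ρ° arrays were below the ρ+ arrays in all 3 probe sets. The call of 201626_at was lost without any one array except ρ+ B (0.0550 to 0.0856), without the intensity trend or the filter, and when changes were centred on the median of the chromosome (adjusted p = 0.0752). That of 201625_s_at was lost without ρ+ A (0.0590) and without the trend. SREBF2 had a log2 change of 0.17 in 201247_at (adjusted p = 0.610) and 0.61 in 201248_s_at (0.246), SCAP of −0.18 (0.623) and SREBF1 of 0.51 (0.225).

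The palmitate enzymes did not pass in either direction in A549. ACLY, which releases cytosolic acetyl-CoA from citrate, had log2 changes of 0.06 to 0.75 in 3 probe sets, the highest with 512.4, 342.0 and 349.0 in ρ+ and 830.2, 424.9 and 826.8 in ρ° cells (adjusted p = 0.115). ACACA, the acetyl-CoA carboxylase, had log2 changes of −0.02 and 0.16. FASN, the fatty acid synthase, had 484.6, 372.9 and 303.7 against 562.5, 368.4 and 577.2 (log2 change 0.37, adjusted p = 0.349), with overlapping groups. The 95% intervals of these changes ran from −0.67 to 1.37 on the log2 scale, so a decrease as large as that of MSMO1 lies outside them.

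The fatty acids that leave the synthase are lengthened by elongases and made unsaturated by desaturases. ELOVL6, which lengthens palmitate, was the gene of this group that passed in A549: ELOVL6 204256_at had 139.5, 123.1 and 226.3 in ρ+ and 59.5, 40.0 and 98.6 in ρ° cells. The groups did not overlap, and the decrease was 2.55-fold (log2 change −1.35, SE 0.35, adjusted p = 0.0365), with an adjusted p of 0.0619 to 0.125 in the 5 fits that left out an array other than ρ° C. Its other probe set, 210868_s_at, had 55.1, 61.6 and 61.3 against 13.4, 18.9 and 42.7 (log2 change −1.42, adjusted p = 0.0563). SCD, which makes oleate, disagreed among its probe sets. SCD 200832_s_at had 874.0, 1156.2 and 1556.3 against 822.0, 595.1 and 657.6, without overlap (log2 change −0.76, adjusted p = 0.0551), and the others had −0.36, −0.12 and 0.67. FADS2, the desaturase of polyunsaturated fatty acids, had 860.4, 509.6 and 280.3 against 222.6, 211.0 and 476.8 (log2 change −0.82, adjusted p = 0.229), and ELOVL5, an elongase of the same acids, had −0.13 and 0.36.

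In 143BTK− no member passed the test, as no probe set of the array did. With limma 0 of 50 member probe sets had an adjusted p under 0.05 (0% of all), 9 were lower at an unadjusted p under 0.05 (4.6% of all probe sets) and 0 higher (3.79%). The median log2 change of the members was −0.28, beside −0.00 for all probe sets, with 38 members below 0 and 12 above. Groups did not overlap with ρ° lower for 10 member probe sets of 7 genes (7.47% of all) and with ρ° higher for 0 (7.37%). Of the 10, 6 belonged to desaturases and elongases and 1 each to ACACA, DHCR7, EBP and SREBF1. The desaturases and elongases had 5 of 9 probe sets lower at an unadjusted p under 0.05 and a median log2 change of −0.71, the mevalonate pathway 1 of 11 and −0.01, and the enzymes from squalene to cholesterol 2 of 17 and −0.29. Proliferation markers had a median log2 change of −0.14 in this line, with 9 of 14 probe sets below 0 and summed signals of 7727 to 9304 in ρ+ and 5897 to 8973 in ρ° cells. Of 9 mesenchymal and bone-forming probe sets 0 passed the adjusted test, with summed signals of 6946 to 8210 and 7625 to 8813. At an unadjusted p under 0.05 both of CDH11 were lower and 1 each of CDH2 (log2 change 0.76) and COL1A1 higher. Of 4 epithelial probe sets 1, of KRT7, was higher at an unadjusted p under 0.05, with summed signals of 4191 to 5142 and 2977 to 5020. For this COL1A1 and this KRT7 probe set the mean of the log2 signals in ρ+ was under the lowest kept, so no size is given. The same held for CDH11 207172_s_at in ρ° cells (26.2, 1.8 and 25.6). The sums follow the brightest probe sets, with KRT18 at 5026.6, 4727.0 and 3957.2 and VIM at 5597.7, 6806.6 and 6693.5 in ρ+ cells. The part of these markers in the result was not tested.

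Part of the sterol genes of 143BTK− had a high signal on a single parental array. The ρ+ C array held the highest of the 3 ρ+ signals for 28 of 50 member probe sets (56%), against 39.8% of all probe sets, and for 6 of 7 of the SREBP regulators. In the mevalonate pathway it was the highest for 5 of 11 (45.5%) and in the enzymes from squalene to cholesterol for 8 of 17 (47.1%), nearer to the share of all probe sets, and for DHCR7 201791_s_at, HSD17B7, EBP 213787_s_at, both probe sets of NSDHL and LSS 202245_at it was the lowest ρ+ array. The ρ° arrays were uneven too: ρ° A held the highest of the 3 ρ° signals for 24 of 50 member probe sets (48%), against 28.8% of all. It was the highest for 8 of 11 of the mevalonate pathway and 11 of 17 of the enzymes from squalene to cholesterol. For the SREBP regulators ρ° B was the highest in 5 of 7. The genes given next were picked with their values known. SQLE had 303.6, 244.2 and 587.2 on ρ+ A, B and C and 311.1, 282.6 and 236.7 on the ρ° arrays. MSMO1 had 156.5, 289.3 and 524.7 against 124.4, 217.2 and 93.1 (log2 change −1.08, SE 0.46, unadjusted p = 0.0437, adjusted p = 0.585). INSIG1 201627_s_at had 107.3, 97.0 and 452.2 against 56.6, 201.6 and 72.2. In each of these the ρ+ C array stood above the 5 others, and the remaining ρ+ and ρ° arrays overlapped. IDI1 208881_x_at (394.8, 357.0 and 690.6 against 390.5, 323.8 and 302.2) and HMGCS1 221750_at (54.4, 69.9 and 132.5 against 117.4, 99.1 and 42.3) had their highest ρ+ signal on the same array. Without ρ+ C the median log2 change of the members in this line was −0.15, and without ρ° A it was −0.40.

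**Figure D3:**
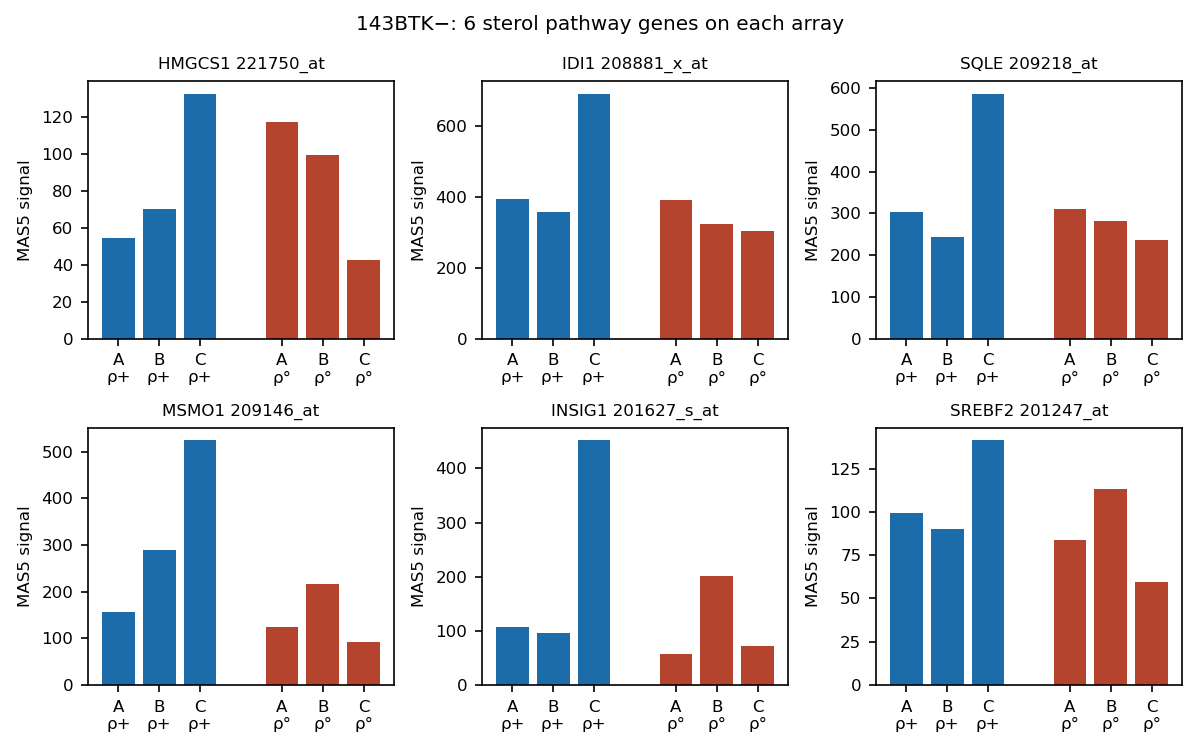
MAS5 signal (y axis, from 0) of 6 sterol pathway genes on each 143BTK− array (x axis, replicates A to C of ρ+ in blue and of ρ° in red), with 1 probe set a gene. The choice of genes was made with their values known. The ρ+ C bar is the highest of the 6 in every panel, at 587.2 for SQLE and 452.2 for INSIG1.

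SREBF1, whose protein is known for driving fatty acid genes, was the member with the smallest unadjusted p in 143BTK−. Its signals were 70.4, 65.3 and 79.7 in ρ+ and 34.7, 27.7 and 35.7 in ρ° cells, a clear gap with little spread within groups (2.20-fold, log2 change −1.14, SE 0.27, unadjusted p = 0.00199, adjusted p = 0.363). In A549 the same probe set had 85.1, 103.2 and 151.7 against 176.6, 140.6 and 155.7, with overlap (log2 change 0.51, SE 0.25, adjusted p = 0.225). It reads the gene of both SREBP1 forms, which were not told apart here.

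SCD, FADS2 and ELOVL6 were lower in 143BTK− ρ° cells at unadjusted p-values and failed the adjustment. SCD 211708_s_at had 191.7, 153.1 and 210.0 in ρ+ and 82.1, 75.2 and 114.0 in ρ° cells (log2 change −1.04, SE 0.27, adjusted p = 0.391). SCD 200831_s_at had 465.0, 410.5 and 519.2 against 306.7, 252.2 and 294.1 (log2 change −0.71, SE 0.21, adjusted p = 0.489), and SCD 211162_x_at had a log2 change of −0.95 (adjusted p = 0.425). In these 3 probe sets each ρ° array was below each ρ+ array. SCD 200832_s_at, the one with the highest signal, had 733.5, 713.2 and 703.8 against 811.8, 674.5 and 509.8, with overlap (log2 change −0.13, 95% interval −0.61 to 0.35). FADS2 had 182.5, 123.3 and 98.5 against 64.1, 51.2 and 76.5, without overlap (log2 change −1.05, SE 0.31, adjusted p = 0.486). ELOVL6 204256_at had 109.1, 113.4 and 121.3 against 69.6, 28.2 and 74.9 (log2 change −1.12, SE 0.38, adjusted p = 0.540). Its other probe set had 42.6, 44.7 and 30.3 against 22.7, 23.3 and 28.5 (log2 change −0.65, adjusted p = 0.627). For MVK 204056_s_at (5.7, 5.1 and 29.3 in ρ° cells) and EBP 213789_at (10.4, 12.7 and 7.6) the mean of the log2 signals was under the lowest kept, so no size is given. The brighter MVK probe set had a log2 change of 0.04, and those of EBP had −0.29 (213787_s_at) and 0.22 (202735_at).

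**Figure D4:**
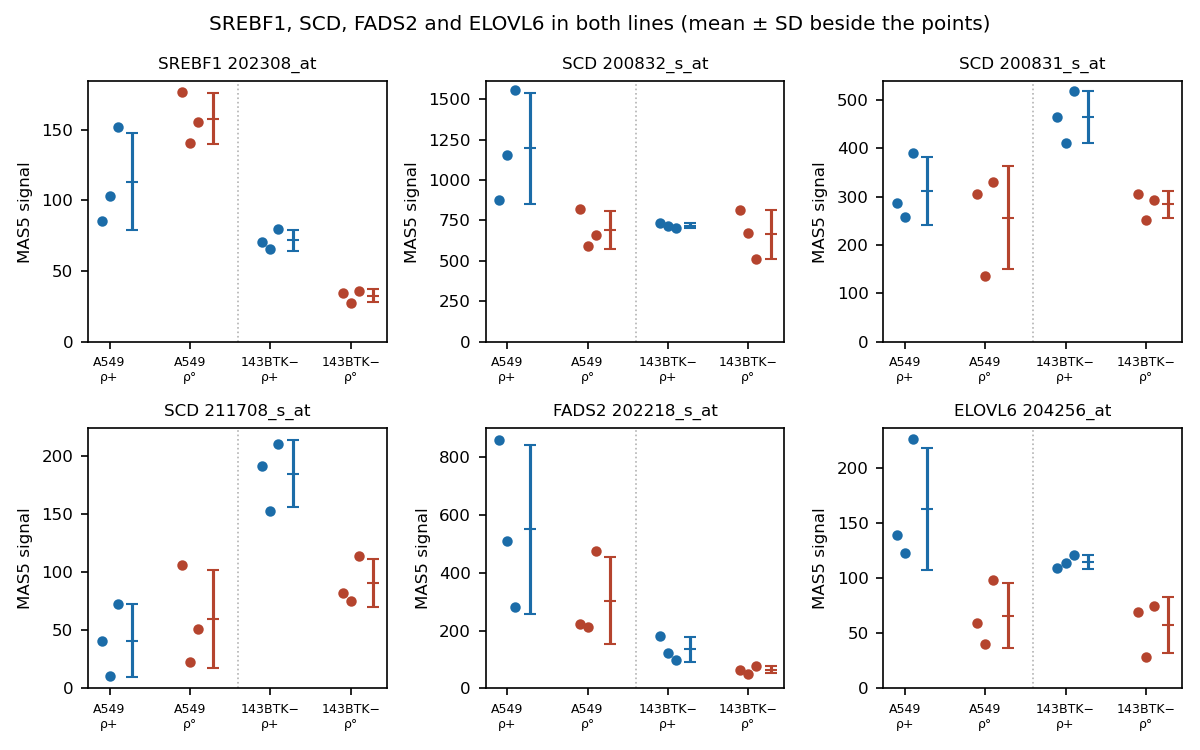
MAS5 signal (y axis, from 0) of SREBF1, 3 SCD probe sets, FADS2 and ELOVL6 on each array of the 4 groups (x axis), with the mean ± SD (n = 3) beside the points. The choice of genes was made with their values known, the SCD probe sets are those with the highest 143BTK− ρ+ means, and A549 and 143BTK− signals were scaled apart. SREBF1 is lower on all 143BTK− ρ° arrays (27.7 to 35.7) than on the ρ+ arrays (65.3 to 79.7), while in A549 the groups overlap.

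Over both lines, 9 of 48 member probe sets were lower in the mean change (1.73% of all probe sets) and 0 higher (1.97%). They belonged to 7 genes: MSMO1 (log2 change −1.31, adjusted p = 0.0179), IDI1 (−0.997 and −0.86, 0.0148 and 0.0310), EBP 213789_at (0.0217), HSD17B7 (−0.87, 0.0240), ELOVL6 (−1.23 and −1.03, 0.0302 and 0.0494), DHCR7 201791_s_at (−0.65, 0.0389) and SQLE 209218_at (−0.76, 0.0490). In 143BTK− alone the log2 change was −0.28 for DHCR7 201791_s_at, −0.35 for SQLE 209218_at, −0.45 and −0.60 for IDI1 and −0.54 for HSD17B7. In A549 the same probe sets had −1.02, −1.17, −1.55, −1.12 and −1.20, in that order. The median log2 change of the members was −0.39, beside −0.01 for all probe sets. EBP 213789_at was kept in 143BTK− through its ρ+ signals, since its ρ° mean there was under the lowest signal kept, and EBP 202735_at had a log2 change of 0.22 in that line. EBP 213789_at and both probe sets of ELOVL6, 3 of 48, had all ρ° arrays below all ρ+ arrays in each line, as did 1.26% of all probe sets. The count depended on single arrays: it was 0 without A549 ρ° A, 2 without A549 ρ° B or 143BTK− ρ+ B, 3 without A549 ρ+ B, 4 without A549 ρ+ A or 143BTK− ρ+ A and 5 without A549 ρ+ C. Without the intensity trend it was 4. Over all 12139 probe sets, 210 were lower and 239 higher with all arrays. In either direction 110 passed without A549 ρ° A, 110 to 548 when any array was left out and 233 without the trend. Of the 9, IDI1 208881_x_at was lost in 1 of the 12 fits that left out an array, EBP 213789_at and MSMO1 in 3 each and ELOVL6 210868_s_at in 10, with adjusted p-values of up to 0.135, that of SQLE.

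The lines were compared by the difference of their changes, A549 minus 143BTK−. SREBF1 was the member that passed, with 1.65 on the log2 scale (SE 0.37, adjusted p = 0.0340), where 1.95% of all probe sets passed in either direction. Its call was lost in 10 of 12 fits that left out an array, all but those without A549 ρ+ C or 143BTK− ρ° C (adjusted p = 0.0539 to 0.1004). It was also lost with 64 added before log2, with changes centred on the chromosome median, without the filter, with a replicate block and with 143BTK− ρ+ C and ρ° B left out, chosen after seeing the data (0.0509 to 0.0850). For EBP 202735_at the difference was −1.83 (SE 0.56, adjusted p = 0.109), for IDI1 208881_x_at −1.10 (0.157), for FDPS −1.06 (0.182) and for MSMO1 −0.45 (95% interval −1.58 to 0.67, adjusted p = 0.708). The other 47 member probe sets did not pass, which does not show that they moved alike. In all, 27 of 48 member probe sets had a negative change in both lines and 4 a positive one. The same count was not made over all probe sets, so these shares cannot be set against the array as a whole.

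Probe sets of the same gene did not always read alike. Of 15 genes with several probe sets kept in both lines, all had the same sign of change in 11 genes in A549 and in 8 in 143BTK−. The exceptions in A549 were ACACA, ELOVL5, LSS and SCD. Probe sets of ELOVL5, FASN and LSS were kept in neither line and were not tested, and dim ones of MVK and SC5D were kept in 143BTK− alone.

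Other genes of lipid metabolism were taken as 4 lists of 55 genes, of which 46 had a probe set. In A549, 2 of their 62 kept probe sets were called lower and 5 higher, with a median log2 change of 0.11, beside 5.2% and 5.66% of all probe sets. In 143BTK− 0 of 63 passed, with 6 lower and 2 higher at an unadjusted p under 0.05, beside 4.6% and 3.79% of all. ABCA1, which exports cholesterol to apolipoproteins, rose in A549 ρ° cells, with 24.5, 33.9 and 41.4 in ρ+ and 101.3, 94.7 and 53.1 in ρ° cells for 203504_s_at (2.46-fold, adjusted p = 0.0344) and a 2.61-fold increase for 203505_at (0.0482). SCARB1, a receptor for high-density lipoprotein, had 267.5, 216.8 and 195.8 against 137.8, 104.0 and 126.3 (1.84-fold lower, adjusted p = 0.0292). Both pairs of groups were without overlap, and the dimmer SCARB1 215834_x_at did not pass. FABP5, which binds fatty acids in the cytosol, was 2.71-fold lower (489.0, 584.5 and 544.6 against 196.6, 171.0 and 233.2, adjusted p = 0.00213). ME1 204058_at, of a source of NADPH, was 1.99-fold higher (adjusted p = 0.0129). The brighter ME1 204059_s_at did not pass, with 384.9, 420.7 and 421.3 against 635.4, 445.9 and 593.2. AGPAT1 32836_at, of an enzyme that acylates lysophosphatidic acid, was 1.68-fold higher (0.0227), and AGPAT1 215535_s_at did not pass (log2 change 0.75, adjusted p = 0.0811). DGAT1, which makes triacylglycerol, was 2.39-fold higher (0.0498). FABP5 and LIPA, the lysosomal acid lipase, passed the difference between the lines (−1.82 and −1.14, adjusted p = 0.00564 and 0.0472). The isoprenoid branches, which draw on farnesyl diphosphate for prenylation, dolichol and ubiquinone, had 0 of 11 calls in A549 and a median of −0.30, and the processing proteases and oxysterol receptors had 0 of 5.

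FDFT1 was not analysed here, and CYP51A1 and FADS1 had no probe set with a single listed gene. For CYP51A1, the lanosterol demethylase, and FADS1, a desaturase, 5 probe sets are listed with LRRD1 or MIR1908 as a second gene. Of those with LRRD1 and CYP51A1, 202314_at had a log2 change of −1.25 in A549 (adjusted p = 0.0367) and of 0.39 in 143BTK− (0.730), and 216607_s_at had −0.33 in A549 (0.490). The 3 with MIR1908 and FADS1 had −0.58 to −0.74 in A549 (0.0839 to 0.133). With these counted as members, an alternative chosen after seeing the data, 15 probe sets were lower in A549.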

How the data were processed

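Total RNA of 12 extractions was measured on 12 arrays. The deposited intensities are linear MAS5 signals, which the authors had quantile-normalized over the 6 arrays of each line. No depth exists for arrays, and precision is limited by 3 arrays a group. Of 22283 probe sets, 19071 had 1 gene in the platform annotation, 1043 several and 2169 none. Symbols were updated through RefSeq (GRCh38.p14), to which 19057 matched.

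Signals were taken to log2 without an offset. The study removed probe sets called Absent, and since those calls were not used here, the same number with the highest mean log2 signal was kept, 13096 in A549 and 14012 in 143BTK− (12139 in both). Groups were compared with limma 3.58.1 in R 4.3.3 (lmFit, eBayes with an intensity trend), within each line and, over both, as the mean of the changes and their difference, with Benjamini-Hochberg adjustment over all kept probe sets and a threshold of 0.05. Fits were tested on simulated data. Alternatives were another normalization, added offsets, other filters, no trend, chromosome centring, a replicate block, 1 probe set a gene and each array left out. Array values are given for members that passed in any of these comparisons, had an unadjusted p under 0.05 with the same sign in both lines, or did not overlap in the same direction in both; values of further members (such as SCD, FADS2, ACAT2 and PMVK) and LIPA were added after they were seen. Of several probe sets of a gene, that with the highest mean log2 signal represents it. Other pathway genes are named where they passed in a line or in the mean change. The members and all gene lists were chosen with earlier results of these data known, and lists are described by counts and medians. Python 3.11.15 with matplotlib 3.10.9 made the plots. The array letters were tested for pairing: deviations of ρ° and ρ+ arrays of the same letter correlated at 0.107, 0.0543 and 0.0861 in A549 and at 0.359, −0.106 and −0.0155 in 143BTK−. Arrays of unlike letters correlated at −0.105 to 0.0193 in A549, below every same-letter value there. Letters were not taken as pairs in the main fits, and these values do not settle for A549 whether they are. In 143BTK− they ran from −0.469 (ρ° A with ρ+ C) to 0.389 (ρ° B with ρ+ C).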

Additional observations from a re-analysis of the deposited data

Results flagged for a closer look

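SREBF1 differed between the lines in the test of the difference itself: A549 minus 143BTK− was 1.65 on the log2 scale (limma, adjusted p = 0.0340). The signal was lower on 3 of 3 ρ° arrays than on any ρ+ array in 143BTK−, and in A549 the groups overlapped. The call was lost in 10 of the 12 fits that left out an array, with a difference of 1.47 to 1.88 over those fits, and in 5 of the 9 other alternatives (adjusted p = 0.0509 to 0.0850).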

How the results depend on the processing

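No result changed its direction. In A549 the count of 14 lower member probe sets became 8 without the filter, 7 without the intensity trend and 6 to 14 when an array was left out, and the median log2 change of −0.57 became −0.30 with 64 added before log2 and −0.61 to −0.40 when an array was left out. The mean change over both lines had 9 lower probe sets, 4 without the intensity trend and 0 to 11 when an array was left out. Calls over all probe sets moved too when an array was left out. In either direction they ran from 425 to 1921 in A549 and from 110 to 548 in the mean change. In 143BTK− the count was 0 under all alternatives run. With a replicate block the counts were 14 in A549, 0 in 143BTK−, 6 in the mean change and 0 lower in the difference. Over all probe sets 1442 passed with it in A549 and 345 in the mean change, in either direction. The medians were the same as without it, which was fixed in advance. Each letter occurs once in each state of a line, so the block cannot move the changes and their medians are no check. With the 143BTK− ρ+ C and ρ° B arrays left out, chosen after seeing the data, 6 probe sets were lower in the mean change and the 143BTK− median was −0.18. Of the 15 A549 calls, 5 passed under all alternatives, of the 9 in the mean change 0, and of 1 in the difference 0. The cause of these losses was not tested. With 3 arrays a group and signals near the lowest kept, small changes could not be measured.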
